A study of Homo sapiens with 4 samples.

Results

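The genes described here encode MYC, its dimer partner MAX and the proteins that compete with MYC for MAX or form the parallel branch around MLX. The 8 members are MYC, MAX, MXD1, MXD3, MXD4, MXI1, MNT and MLX. They were chosen by name: every deposited gene feature whose name before the first bar equals a member was summed in each library, and the sum was scaled to CPM, the counts per 1000000 of all gene and transposable element (TE) counts of that library. All 8 were found among the 40877 names of the gene table that name 1 gene.

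The study profiled single cells of H1299, derived from a non-small cell carcinoma of the human lung, and of HCT116, derived from a human colorectal carcinoma. Libraries were made with the 5′ kit of 10x Genomics, which captures polyadenylated RNA and reads each transcript from its start. By its title the study concerned TE expression after release from epigenetic repression. Each line was treated with the solvent DMSO or with DAC (decitabine, a DNA methyltransferase inhibitor) at 500 nM for 72 h together with SB939 (a histone deacetylase inhibitor) at 500 nM for 18 h. Medium with fresh compound was supplied every 24 h to cultures at passages 5 to 10. A line with DMSO, or with both drugs (called DAC+SB), makes up 1 of 4 groups. A group is 1 library, so the effect of DAC alone or SB939 alone was not measured and no difference between groups has a replicate check.

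MYC is a basic helix-loop-helix leucine zipper transcription factor that binds DNA as a dimer with MAX, mostly at the E-box CACGTG, and drives genes of ribosome production, nucleotide synthesis and cell cycle entry. The MXD proteins (MXD1, MXD3, MXD4 and MXI1) and MNT also pair with MAX at E-boxes but recruit SIN3 and histone deacetylases, and are known for repressing MYC-activated genes in resting and differentiating cells. MLX is a second hub: it pairs with MXD1, MXD4 and MNT and with the glucose-sensing activators MLXIP (MondoA) and MLXIPL (ChREBP). MYC is a frequent driver in colorectal and lung cancers, and in the colon it is a classical target of WNT signalling.

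The data comprised 15289 cells, between 3578 and 4327 per library, and between 38927267 and 64524196 counts per library. HCT116 DAC+SB was the shallowest library, with a median of 8449 counts per cell against 15784.5 to 17369.5 in the others. Mitochondrial genes made up a median of 8.33% (DMSO) and 8.87% (DAC+SB) of the counts of an H1299 cell and 15.8% and 18.6% of those of an HCT116 cell, and the TE share of counts went from 0.199% to 3.09% in H1299 and from 0.319% to 5.56% in HCT116. Between 60 and 71 cells of each library carried a barcode that also occurs in another library. Of 10 markers of H1299, 9 were higher in H1299 than in HCT116 under DMSO and 9 under DAC+SB. Values of the 4 libraries are given from here on with H1299 before HCT116 and, within a line, DMSO before DAC+SB. The H1299 markers summed to 4436, 3344, 1658 and 2707 CPM. Of 12 markers of HCT116, 9 and 7 were higher in HCT116, with sums of 124, 371, 506 and 590 CPM. Among the markers, NNMT was near 0 in every library and CDX1 had no count in HCT116 DMSO.

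Only genes that reached 100 counts in 1 of the libraries compared were counted. By this rule 18.3% of 14610 genes rose past 2-fold in H1299 with DAC+SB (2673 genes) and 7.34% fell (1072 genes). In HCT116 16.2% of 13539 genes rose (2192) and 20.0% fell (2706). Of these genes 1981 in H1299 and 1291 in HCT116 reached 100 counts only with DAC+SB, whereas all 8 members reached it in every library. When ratios were centred on the median of genes with at least 1000 counts in both libraries, which lay at -0.21 in H1299 and -0.17 in HCT116 on the log2 scale, the H1299 split became 3080 risen against 605 fallen genes and the HCT116 split 2496 against 2041. "Rose" and "fell" are used below for genes past 2-fold in CPM, and all other members are given by their values. Against these shares, 1 of the 8 members rose (MXD4) and 1 fell (MYC) in H1299, and 1 rose (MXD1) and 0 fell in HCT116 or 12.5% of the members in each of the first 3 cases. Among genes with at least 100 counts in the DMSO library, as all 8 members have, 6.73% rose and 8.49% fell in H1299 and 7.47% rose and 22.1% fell in HCT116. At 4-fold no member was counted in either direction, with 11.0% of genes higher and 0.349% lower in H1299 and 9.63% and 3.69% in HCT116. At 1.5-fold 1 member was higher and 2 were lower in H1299 (24.9% and 21.3% of genes) and 2 were higher and 3 lower in HCT116 (22.7% and 35.2%). No member passed 2-fold in both lines, as 8.30% of genes did upward and 5.20% downward. Intervals in parentheses are 95% counting intervals and cover counting error only. They take counts as independent, which was not tested.

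CACGTG, the E-box bound by the dimers of the network, was searched in the 250 bases upstream of the members' start sites in RefSeq promoters (GRCh38.p14). It reads the same on both strands. Promoters were matched for 7 members (none was used for MYC), with 10 start sites, of which 3 hold the motif, against 2228 of 35116 promoters in all (6.34%). The stretches that hold it, in MXD4, MNT and MLX, are shown because they place the motif of the network in front of its own genes. They lie outside annotated exons on GRCh38 and are printed 5′ to 3′ on the strand of the gene, with the motif in capitals. MXD4 is shown at chr4:2262295-2262359 (minus strand, motif 238 bases upstream of the start), MNT at chr17:2401119-2401310 (minus strand, 193 bases upstream) and MLX at chr17:42566850-42567067 (plus strand, 50 bases upstream). These distances are to RefSeq starts, which differ from the gene positions given below for all 3 genes.
MXD4: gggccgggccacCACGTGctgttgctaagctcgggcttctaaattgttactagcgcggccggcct
MNT: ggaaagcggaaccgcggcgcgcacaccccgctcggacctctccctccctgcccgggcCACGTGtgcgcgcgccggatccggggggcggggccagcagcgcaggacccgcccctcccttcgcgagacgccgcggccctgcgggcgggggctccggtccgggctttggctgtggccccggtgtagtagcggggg
MLX: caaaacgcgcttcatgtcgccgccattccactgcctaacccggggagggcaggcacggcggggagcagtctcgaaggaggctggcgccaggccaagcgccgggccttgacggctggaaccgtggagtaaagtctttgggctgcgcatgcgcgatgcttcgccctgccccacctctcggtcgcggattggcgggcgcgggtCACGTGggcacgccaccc
Methylation was not measured here. The 250-base windows of MXD4, MNT and MLX hold 26, 35 and 30 CG dinucleotides. Windows without the motif hold 28, 24 and 12 at the 3 start sites of MXI1, 18 and 15 at those of MAX, 16 in MXD1 and 10 in MXD3, where the median over all promoters is 11. The 3 members with the motif did not share a response: with DAC+SB the log2 ratio was 1.10 in H1299 and 0.62 in HCT116 for MXD4, -0.32 and -0.52 for MNT, and 0.13 and -0.00 for MLX.

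MYC, on chromosome 8, was lower with DAC+SB in both lines. It had 9136 counts (142 CPM) in H1299 DMSO, 3814 (61.1 CPM) in H1299 DAC+SB, 10540 (168 CPM) in HCT116 DMSO and 3714 (95.4 CPM) in HCT116 DAC+SB. The counting intervals of the 4 levels did not overlap, and both DMSO libraries lay above both DAC+SB libraries. In H1299 MYC fell 2.32-fold (2.23 to 2.41), which is -1.21 (-1.27 to -1.16) on the log2 scale. In HCT116 it was 1.76-fold lower (1.70 to 1.83), or on the log2 scale -0.82 (-0.87 to -0.76), short of 2-fold. The log2 ratio of H1299 minus that of HCT116 was -0.39 (-0.47 to -0.32). The HCT116 value and the difference depended on a numbered feature, described below, that only the HCT116 libraries list. Over features listed in all 4 libraries, which leave that feature out, HCT116 had 7144 and 2206 counts (114 and 56.7 CPM). The log2 ratio was then -1.009 (-1.08 to -0.94), past 2-fold, and the difference between the lines -0.20 (-0.29 to -0.12). Both HCT116 libraries list the feature, so its counts belong to the HCT116 ratio, which over all features was -0.82.

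MAX (chromosome 14, 65006174 to 65102695, GENCODE v29 on GRCh38, minus strand), the shared partner that MYC, the MXD proteins and MNT need to bind DNA, did not follow MYC. Its counts were 1730, 1740, 1497 and 1271, or 26.8, 27.9, 23.9 and 32.7 CPM. The 2 H1299 levels overlapped within counting error, with a log2 ratio of 0.06 (-0.04 to 0.15). The HCT116 value was 0.45 (0.34 to 0.56), so HCT116 DAC+SB had the highest level and HCT116 DMSO the lowest. After centring the values were 0.27 (0.17 to 0.36) and 0.62 (0.52 to 0.73).

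MXD4 (chromosome 4, 2247432 to 2262294, minus strand), an antagonist linked to cell cycle exit, rose in H1299. It had 1700, 3526, 703 and 671 counts, or 26.3, 56.5, 11.2 and 17.2 CPM. The 4 levels did not overlap within counting error, and H1299 stood above HCT116 under each treatment. With DAC+SB it was 2.14-fold higher (2.02 to 2.27) in H1299 and 1.54-fold higher (1.38 to 1.71) in HCT116, where it did not reach 2-fold. In the cells without a count of a mitotic gene list, described further below, the H1299 log2 ratio was 0.72 in place of 1.10.

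MXD1 (chromosome 2, 69897688 to 69942945, plus strand), the founding member of the family and a gene known to be induced in differentiation, rose in HCT116 and had a log2 ratio of the opposite sign in H1299. Its counts were 467, 357, 246 and 382, or 7.24, 5.72, 3.93 and 9.81 CPM. None of these levels overlapped within counting error: HCT116 DMSO was the lowest library for MXD1 and HCT116 DAC+SB the highest. The ratio was 2.50 (2.12 to 2.95) in HCT116, or 1.32 (1.09 to 1.56) on the log2 scale, whereas H1299 had a log2 ratio of -0.34 (-0.54 to -0.14). The H1299 value depended on the scaling: after centring it was -0.13 (-0.33 to 0.07), within counting error of 0. Log2 ratios of opposite sign were seen for 24.7% of genes. The difference between the lines was -1.66 (-1.97 to -1.36). MXD1 was the only member whose log2 ratios differed by at least 1 between the lines. Of 12644 genes compared, 7.67% had an H1299 log2 ratio at least 1 below that of HCT116. Counts also lie under a joined name of MXD1 and its neighbour SNRNP27 (148, 133, 118 and 57), and with these added the HCT116 log2 ratio was 0.96, short of 2-fold.

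MXD3 (chromosome 5, 177301461 to 177312757, minus strand), the member of the family known for expression in cycling cells, was lower with DAC+SB in both lines, as MYC was. It had 1726, 1022, 1605 and 505 counts, or 26.7, 16.4, 25.6 and 13.0 CPM. The DMSO levels of the 2 lines overlapped within counting error and lay above both DAC+SB levels. The log2 ratio was -0.71 (-0.82 to -0.60) in H1299 and -0.98 (-1.13 to -0.84) in HCT116, just short of 2-fold. A numbered feature of MXD3, with 235 counts in H1299 DMSO, was not listed in H1299 DAC+SB. With these DMSO counts left out and none left out of DAC+SB, the H1299 log2 ratio was -0.50.

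MXI1 (chromosome 10, 110207605 to 110287365, plus strand), also known as MXD2 and named for its interaction with MAX, had 422, 427, 744 and 301 counts, or 6.54, 6.84, 11.9 and 7.73 CPM. Only HCT116 DMSO stood apart, as the intervals of neighbouring levels among the other 3 libraries overlapped. The log2 ratio was 0.06 (-0.13 to 0.26) in H1299 and -0.62 (-0.82 to -0.42) in HCT116. MNT (chromosome 17, 2384060 to 2401118, minus strand), the broadly expressed antagonist of MYC, had 904, 701, 652 and 282 counts, or 14.01, 11.2, 10.4 and 7.24 CPM. H1299 DMSO was the highest and HCT116 DAC+SB the lowest, and the 2 libraries between them overlapped. Its log2 ratios were -0.32 (-0.46 to -0.18) and -0.52 (-0.73 to -0.32), and their difference of 0.20 (-0.04 to 0.45) lay within counting error. The antagonists therefore did not move as a group: MXD4 was higher and MXD3 and MNT were lower with DAC+SB in both lines, while MXD1 differed in sign and MXI1 was within counting error of its DMSO level in H1299 and lower in HCT116. Centring moved the H1299 values of MNT to -0.11 (-0.25 to 0.04), within counting error of 0, and of MXI1 to 0.28 (0.08 to 0.47). It kept the signs of MXD4 and MXD3 in both lines.

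MLX (chromosome 17, 42567068 to 42573239, plus strand) had 2392, 2527, 4330 and 2682 counts, or 37.1, 40.5, 69.1 and 68.9 CPM. Both HCT116 levels, which overlapped within counting error, lay above both H1299 levels. The log2 ratio with DAC+SB was 0.13 (0.05 to 0.21) in H1299 and -0.00 (-0.07 to 0.07) in HCT116, or 0.34 and 0.17 after centring.

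The other genes of the network were read in the same way. MLXIP, the MondoA gene, fell in HCT116, where it went from 38.6 to 17.1 CPM with a log2 ratio of -1.18 (-1.30 to -1.05). In H1299 it went from 47.3 to 30.0 CPM with -0.65 (-0.74 to -0.57). MLXIPL, the ChREBP gene, was nearly silent in H1299 DMSO with 27 counts and rose to 651 counts with DAC+SB, a ratio of 24.9 (17.0 to 38.1), while HCT116 had 807 and 465 counts with a log2 ratio of -0.11 (-0.28 to 0.06). MYCL, the MYC paralogue first found in small cell lung cancer, rose in H1299 from 8 to 127 counts, a ratio of 16.4 (8.08 to 38.8), and had 189 and 195 counts in HCT116 with a log2 ratio of 0.73 (0.44 to 1.03). In cells without a mitotic count the H1299 log2 ratios of MLXIPL and MYCL were 3.08 and 2.51 in place of 4.64 and 4.04. MYCN, the neuroblastoma paralogue, had 0, 1, 0 and 4 counts. The interval of a count of 0 reached 0.0572 CPM in H1299 DMSO and 0.0589 CPM in HCT116 DMSO, if no feature of MYCN went unlisted. MGA, a repressor that pairs with MAX, stayed between 34.8 and 47.0 CPM, and its log2 ratio was -0.28 (-0.36 to -0.21) in the lung line and 0.14 (0.04 to 0.23) in the colon line. After centring the first was -0.07 (-0.15 to 0.00), within counting error of 0.

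**Figure D1:**
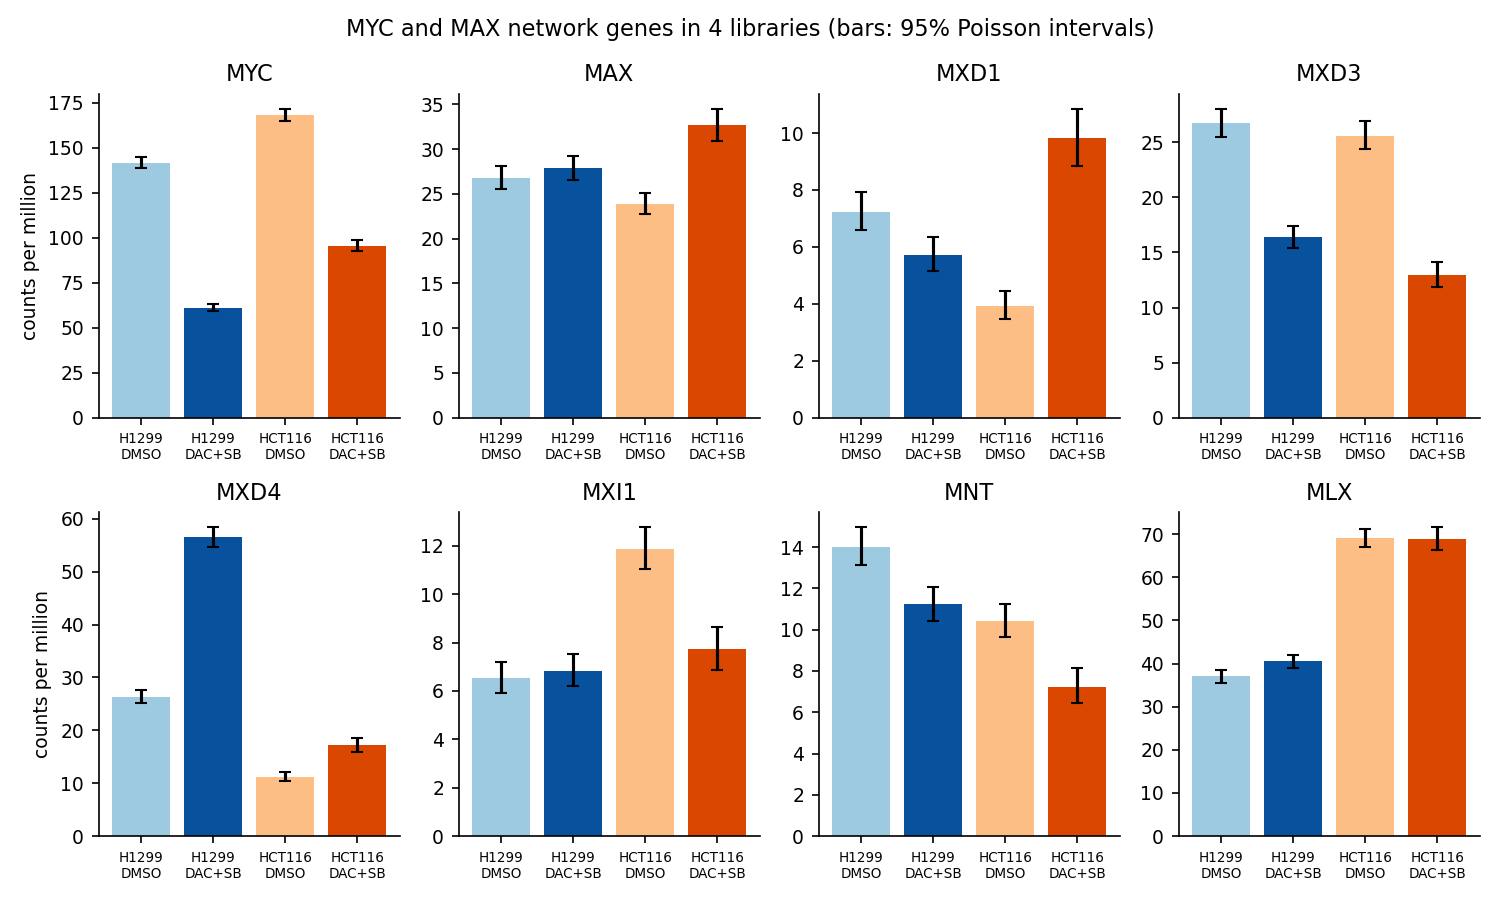
Level of each of the 8 members in the 4 libraries, in CPM on axes that start at 0, with 95% Poisson intervals for counting error. MYC is lower with DAC+SB in both lines (142 to 61.1 and 168 to 95.4 CPM), MXD4 is highest in H1299 DAC+SB (56.5 CPM) and MXD1 is highest in HCT116 DAC+SB (9.81 CPM).

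**Figure D2:**
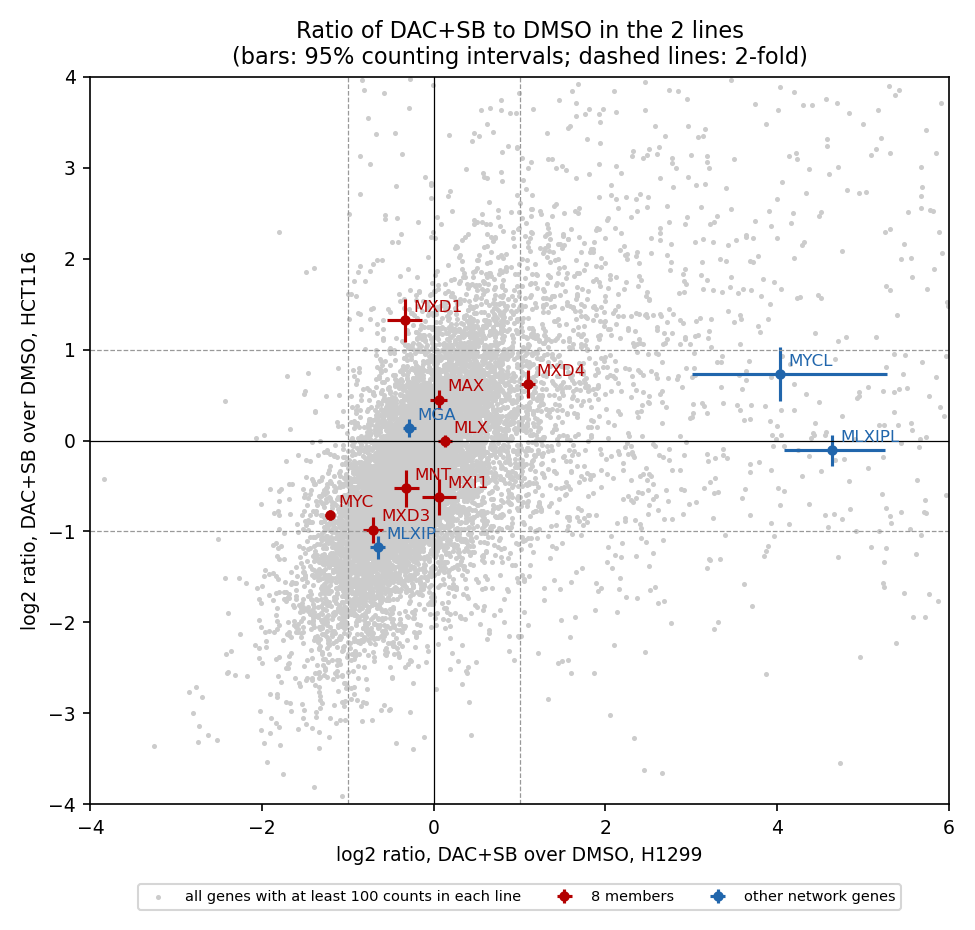
Log2 ratio of DAC+SB to DMSO in H1299 (x axis) and HCT116 (y axis) for the 8 members (red), 4 other network genes (blue) and all genes that reached 100 counts in a library of each line (grey, 11922 of 12644 genes, the other 722 lying outside the axes), with 95% counting intervals and dashed lines at 2-fold. Most members lie inside the grey cloud, with MYC at -1.21 and -0.82, MXD1 at -0.34 and 1.32, and MYCL and MLXIPL far to the right at 4.04 and 4.64 in H1299.

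The 2 lines were also compared under each treatment. With DMSO, H1299 exceeded HCT116 by 2-fold or more for 20.5% of 13796 genes and was exceeded for 15.2%, and with DAC+SB for 25.4% and 12.1% of 14875 genes. MXD4 was the only member past 2-fold over all its features, 2.35-fold higher (2.15 to 2.57) in H1299 with DMSO and 3.28-fold higher (3.02 to 3.56) with DAC+SB. MLX was 1.86-fold (1.77 to 1.961) and 1.70-fold (1.61 to 1.80) lower in H1299, and MXI1 was 1.82-fold lower (1.61 to 2.05) with DMSO. The order of the lines turned for MXD1, which was 1.84-fold higher (1.58 to 2.16) in H1299 with DMSO and 1.72-fold lower (1.48 to 1.99) with DAC+SB. MAX turned in the same way with smaller ratios, 1.12 (1.05 to 1.203) and 0.854 (0.794 to 0.918). For MYC the log2 ratio of H1299 to HCT116 was -0.25 with DMSO and -0.64 with DAC+SB. Over features listed in all 4 libraries it was 0.31 and 0.11. That leaves out feature 2 of MYC, with 3396 and 1508 counts, which is listed in HCT116 only. The turned sign thus comes from counts left out of HCT116 alone. For MXD3 the log2 ratio of H1299 to HCT116 was 0.06 with DMSO and 0.34 with DAC+SB. Over features listed in all 4 libraries it was 0.75 and 1.21. That leaves out feature 1 of MXD3, with 235 counts in H1299 DMSO and 743 and 230 counts in HCT116. In H1299 DAC+SB this feature was not listed, so the DAC+SB value is past 2-fold only with counts left out of HCT116. Line and library cannot be told apart with 1 library per group.

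The deposited table splits some genes into numbered features, and the sources used here do not say what the numbers mean. A numbered feature is listed only from 10 counts in a library, so an unlisted one is not known to be 0. MYC without a number had 7601, 3042, 5565 and 1664 counts, and was at -1.27 (-1.33 to -1.21) on the log2 scale in H1299 and at -1.055 (-1.14 to -0.98) in HCT116, so the unnumbered feature of MYC fell in both lines. Feature 1 of MYC (1535, 772, 1579 and 542 counts) was at -0.94 and -0.86. Feature 2 of MYC was listed in the HCT116 libraries only, with 3396 and 1508 counts and a log2 ratio of -0.48 (-0.57 to -0.40), and its share of MYC counts went from 32.2% to 40.6%. The HCT116 ratio of MYC thus includes a feature that H1299 did not list.

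MXD1 and MAX also shifted between features in HCT116. Feature 1 of MXD1 (191, 172, 89 and 239 counts) rose there by 2.11 on the log2 scale and went from 36.2% to 62.6% of MXD1 counts, whereas MXD1 without a number was at 0.55. In H1299 the same features were at -0.10 and -0.53. Feature 1 of MAX (306, 324, 430 and 494 counts) was at 0.89 in HCT116 and 0.13 in H1299, against 0.23 and 0.04 for MAX without a number. Feature 1 of MLX (1159, 1377, 2570 and 1755 counts) held 48.5%, 54.5%, 59.4% and 65.4% of MLX counts and had log2 ratios of 0.30 and 0.14. Feature 1 of MXI1 was listed in HCT116 DAC+SB alone, with 34 counts, and MXD4 and MNT had no numbered feature.

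**Figure D3:**
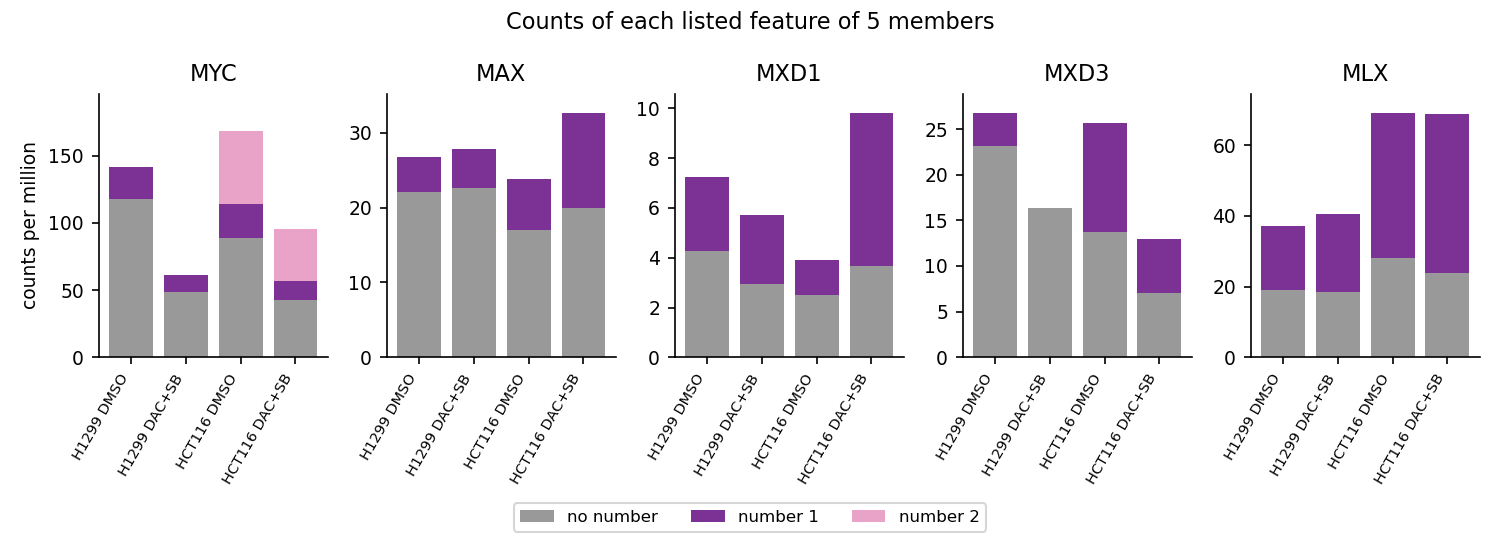
CPM of each listed feature of MYC, MAX, MXD1, MXD3 and MLX, stacked in 1 bar per library (grey, no number; purple, number 1; pink, number 2). MYC feature 2 appears only in HCT116 (54.2 and 38.7 CPM), MXD3 feature 1 is not listed in H1299 DAC+SB, and MXD1 feature 1 makes up most of the HCT116 DAC+SB bar.

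MYC was found in fewer cells with DAC+SB than with DMSO in each line. Each cell was thinned to 3300 counts, which left out 402 HCT116 DAC+SB cells and none of the other libraries. MYC was then found in 32.5% (30.9 to 34.0) of H1299 DMSO cells, 15.5% (14.4 to 16.7) of H1299 DAC+SB cells, 36.7% (35.2 to 38.3) of HCT116 DMSO cells and 22.4% (21.1 to 23.8) of HCT116 DAC+SB cells (exact Clopper-Pearson intervals). Without thinning the shares were 73.1%, 47.7%, 76.1% and 40.7%. Each library holds 1 cell line, so no cells that should lack MYC gave a background share, and the part of free RNA in these shares was not tested. MXD4 was found in 8.13%, 17.5%, 3.50% and 4.99% of thinned cells, and MXD1 in 2.21%, 1.85%, 1.18% and 2.73%. The low shares of MXD1 are given as values only.

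In thinned cells the variance of MYC counts was 1.41, 1.26, 1.51 and 1.75 times their mean. The other members lay between 0.970 and 1.30, and MXD4 in H1299 DAC+SB (1.30) was above MYC in that library. No source used here says whether the counts are unique molecules, so nothing is read from these ratios about differences between cells. Cells with at least 5 MYC counts after thinning numbered 5, 0, 23 and 18.

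Within each library the members were compared between the 10% of cells richest in 10 mitotic transcripts, such as CCNB1, PLK1 and TOP2A, and the other cells. Cells of 1 library are not replicates, so these are descriptions. Among genes that reached 100 counts in 1 subset, 4.95%, 5.81%, 4.73% and 3.95% exceeded 1.5-fold upward in the mitosis-rich cells of the 4 libraries and 6.77%, 7.70%, 2.32% and 4.69% downward. MXD3 was the member on the higher side in all 4 libraries, at 52.5 against 23.4 CPM in H1299 DMSO, 29.5 against 14.7 in H1299 DAC+SB, 51.3 against 22.4 in HCT116 DMSO and 19.7 against 12.1 in HCT116 DAC+SB. Its log2 ratios were 1.16 (1.00 to 1.33), 1.00 (0.77 to 1.22), 1.19 (1.02 to 1.37) and 0.70 (0.33 to 1.06). MXD3 is not 1 of the 10 genes that chose those cells. The mitosis-rich cells had median mitochondrial shares of 7.61%, 7.62%, 15.1% and 17.7% against 8.41%, 9.03%, 15.8% and 17.9%, and the part of this in the ratios was not tested. MXD3 without a number was at 1.21, 1.00, 0.82 and 0.23 (-0.36 to 0.78), so in HCT116 DAC+SB the unnumbered feature alone stayed within 1.5-fold. Feature 1 of MXD3 was at 0.85 in H1299 DMSO and at 1.57 and 1.15 in the HCT116 libraries.

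MYC was past 1.5-fold lower in the mitosis-rich cells of H1299 and not in those of HCT116, a difference between lines that was not tested. In H1299 it was at 49.6 against 153 CPM with DMSO and 24.9 against 65.6 CPM with DAC+SB, log2 ratios of -1.63 (-1.78 to -1.48) and -1.40 (-1.63 to -1.18). In HCT116 it was at 142 against 172 CPM with DMSO and 90.1 against 95.9 CPM with DAC+SB, log2 ratios of -0.27 (-0.37 to -0.18) and -0.09 (-0.25 to 0.07). MYC without a number, which all libraries list, was at -1.58 and -1.25 in H1299 and at -0.27 and -0.12 in HCT116. MNT was also lower in these cells, past 1.5-fold in H1299 DMSO (-1.51, -2.01 to -1.05) and HCT116 DMSO (-1.02, -1.53 to -0.55). Under DAC+SB it was at -0.45 (-0.86 to -0.06) and -0.30 (-0.99 to 0.31). The other 5 members stayed within 1.5-fold in every library.

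**Figure D4:**
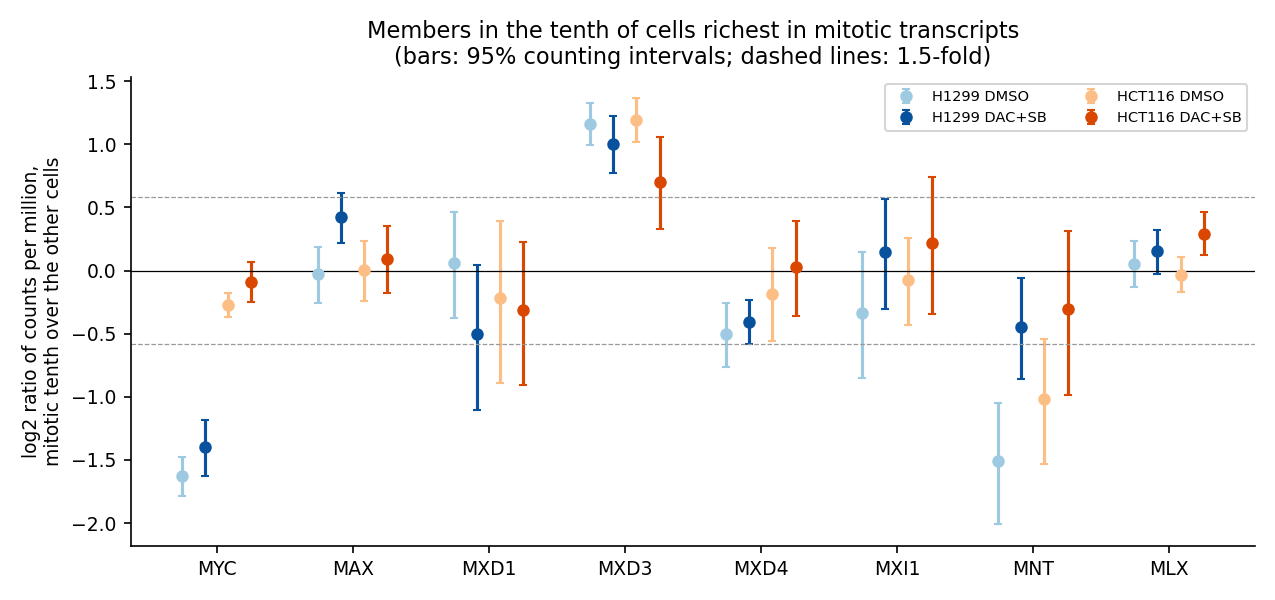
Log2 ratio of CPM between the 10% of cells richest in mitotic transcripts and the other cells of the same library, for the 8 members in the 4 libraries, with 95% counting intervals and dashed lines at 1.5-fold. MXD3 lies above the upper line in every library (0.70 to 1.19), and MYC lies far below the lower line in both H1299 libraries (-1.63 and -1.40) but not in HCT116 (-0.27 and -0.09).

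Mitotic content itself moved with the treatment. The mitotic list summed to 1578, 1235, 1333 and 764 CPM and a list of 12 S phase genes to 1088, 502, 1119 and 422 CPM. After thinning, 12.1%, 29.7%, 10.7% and 22.4% of cells had no mitotic count. Among those cells the log2 ratio of MYC with DAC+SB was -1.10 in H1299 and -0.73 in HCT116, close to the values over all cells. MXD3 had 73, 57, 44 and 47 counts in those cells and log2 ratios of -1.62 and -0.36, and MXI1 had 63, 105, 96 and 63 counts and log2 ratios of -0.53 and -1.07. The part of mitotic content in the members' ratios was not tested further.

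Cells were also split by their TE share. Between the third of cells with the highest share and the third with the lowest, 1.79%, 4.47%, 0.713% and 4.55% of genes exceeded 1.5-fold upward and 0.208%, 6.74%, 0.0488% and 11.1% downward. MXD3 was the only member past 1.5-fold, lower in the TE-rich cells of H1299 DAC+SB at -0.97 on the log2 scale. It was at -0.52 in HCT116 DAC+SB and at -0.26 and -0.07 in the DMSO libraries. TE-rich cells of HCT116 DAC+SB had a median mitochondrial share of 20.1% against 16.1% and a median of 8108.5 against 9974.5 counts. In H1299 DAC+SB these were 9.15% against 8.41% and 15693 against 15814.5 counts, and their part in the MXD3 values was not tested. MYC was at -0.02, 0.55, -0.14 and -0.07 and MXD4 at 0.01, 0.36, 0.04 and -0.50, so neither had 1 sign in all libraries.

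For the 10% of cells richest in S phase transcripts, 2.25%, 6.61%, 2.51% and 4.38% of genes exceeded 1.5-fold upward and 2.38%, 4.90%, 2.56% and 3.98% downward. MXD3 passed 1.5-fold upward in H1299 DAC+SB, at 25.1 against 15.4 CPM with a log2 ratio of 0.70 (0.44 to 0.95). MNT did so in HCT116 DAC+SB, with 39 counts in the S phase-rich cells and a log2 ratio of 0.64 (0.11 to 1.13). MYC stayed within 1.5-fold of the other cells at 0.13, -0.28, 0.07 and 0.12.

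Genes around the network were described by 7 lists without a test. Their counts and medians are given beside those of all genes (shares above, medians of -0.07 in H1299 and -0.23 in HCT116). Over all genes with at least 100 counts with DMSO the medians were -0.19 in H1299 and -0.34 in HCT116. Of 40 MYC-activated targets, 6 fell and 1 rose in H1299, with a median log2 ratio of -0.66 and 33 of 40 below 0 (7900 of 14610 for all genes). In HCT116, 12 of 38 fell and 1 rose, with a median of -0.53 and 36 of 38 below 0 (8041 of 13539 for all genes). Genes that reached 100 counts only with DAC+SB lie above 0 by that rule. Among genes with at least 100 counts with DMSO, 7900 of 12629 were below 0 in H1299 and 8041 of 12248 in HCT116. After centring, MYBBP1A and POLR1B of the 6 and DKC1, E2F1 and WDR43 of the 12 were short of 2-fold. With joined names added, PPAN of the 12 was at -0.27 in HCT116 in place of -1.18. Over features listed in both libraries, PPAN (-1.60) and MRTO4 (-1.06) were past 2-fold lower in H1299 and MRTO4 (-1.51) in HCT116. The lowest were E2F1, a cell cycle transcription factor (35.4 to 9.92 CPM, -1.84), and CAD, the enzyme that starts pyrimidine synthesis (43.1 to 15.0 CPM, -1.52) in H1299. In HCT116 they were HSPE1, a mitochondrial chaperonin (161 to 28.8 CPM, -2.48), and CAD (53.8 to 15.1 CPM, -1.84). Against this direction, CCND2, which encodes cyclin D2, rose in H1299 from 22 to 412 counts (4.27), so it reached 100 only with DAC+SB. Of the 39 targets with at least 100 counts in H1299 DMSO, 0 rose. ODC1, the first enzyme of polyamine synthesis, rose in HCT116 (147 to 337 CPM, 1.198). IMPDH2, of guanine nucleotide synthesis, was at 0.69 and 0.63.

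The MYC-repressed list depended on the count minimum in H1299. There 8 of 14 genes rose and 0 fell, with a median log2 ratio of 1.30. Of these 14, 6 reached 100 counts only with DAC+SB, and all 6 were among the 8 that rose. The other 8 genes had a median of 0.45, and 2 of them rose, CDKN1A and CLU. For all genes with at least 100 counts with DMSO the median was -0.19 and the share that rose the 6.73% given above. After centring, THBS1 (1.18) and DDIT3 (1.08) made it 10 of 14. COL1A2, a collagen gene, went from 0 to 430 counts, at least 7.21 higher on the log2 scale if an unlisted feature had no counts, and PDGFRB, a growth factor receptor gene, rose by 4.75 (3.49 to 6.39). Over features listed in both libraries PDGFRB had 5 and 98 counts, under the minimum, and 7 of the list were counted as risen. ITGB1 (-0.54) and GADD45A (-0.53) were the lowest. In HCT116, where all 12 genes counted had at least 100 counts with DMSO, 5 rose and 1 fell, with a median of 0.39. The 5 were THBS1 (thrombospondin, 3.23), CLU (clusterin, 3.10), CEBPA (2.57) and the cyclin-dependent kinase inhibitor genes CDKN1C (2.50) and CDKN1A (1.74). NDRG2 fell by 1.18 and CDKN1B was at -0.80. CDKN1A, which encodes p21, was also among the 8 of H1299, going from 52.5 to 119 CPM (1.18).

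Targets of the MLX partners moved in both directions. In H1299 2 of 10 rose and 2 fell (median -0.51), and in HCT116 2 of 10 rose and 4 fell (median -0.62). TXNIP, a glucose-responsive inhibitor of thioredoxin and a classical MondoA target, went from 0 to 558 counts in H1299, at least 7.59 higher on the log2 scale if no unlisted feature had counts, while HCT116 had 1 and 331 counts and a log2 ratio of 9.06 (6.57 to 14.36), whose wide interval reflects the single count. Its relative ARRDC4 rose by 3.15 (2.38 to 4.03) and 4.08 (3.65 to 4.54). The 4 that fell in HCT116 were the lipid synthesis genes SCD, ELOVL6, FASN and ACACA. Of these, 1 fell in H1299. SCD fell by 1.90 on the log2 scale in H1299 (278 to 74.7 CPM) and to a log2 ratio of -3.06 in HCT116 (360 to 43.3 CPM), and ELOVL6 fell by 2.36 in HCT116 (37.6 to 7.30 CPM). In H1299 ELOVL6 was at -0.41, FASN at -0.32 and ACACA at -0.86, or -1.04 over features listed in both libraries. KLF10 fell by 1.68 in H1299. Both risen genes were under 100 counts with DMSO in each line. Over features listed in both libraries ARRDC4 was at 2.71 in H1299 but had 95 counts, under the minimum.

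Of 13 partners and cofactors of MYC, 0 rose in either line. HCFC1, a chromatin-bound cofactor, fell by 2.18 in H1299 (92.5 to 20.4 CPM) and by 2.59 in HCT116 (80.2 to 13.4 CPM). The acetyltransferase gene KAT2A fell to ratios of 0.435 and 0.318, the H1299 value being short of 2-fold after centring (log2 ratio -0.99). TRRAP and RUVBL1 completed the 4 that fell in HCT116, at -1.54 and -1.30. The medians were -0.50 and -0.80. ZBTB17, which encodes the MYC partner MIZ1, was at 0.12 and 0.15.

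Corepressors of the MXD and MNT proteins, the SIN3 and histone deacetylase complex that is itself a target class of SB939, had 0 of 13 genes past 2-fold in H1299 (median 0.03), or 1 after centring, when ING1 was at 1.01 in place of 0.80. In HCT116 1 rose and 2 fell (median -0.39). The 2 that fell were the histone-binding genes RBBP7 (-1.14) and RBBP4 (-1.07), and both were short of 2-fold after centring. In HCT116 ING1 rose by 1.69, but its log2 ratio was 0.63 over features listed in both libraries.

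Of 12 genes of MYC protein turnover, 1 rose and 2 fell in H1299 (median -0.12) and 1 rose and 3 fell in HCT116 (median -0.55). FBXO32, an F-box gene, rose in both lines by 1.82 and 2.08, but in HCT116 it had 48 and 126 counts and so reached 100 only with DAC+SB. Of the 11 genes of the list with at least 100 counts in HCT116 DMSO, 0 rose. Over features listed in both libraries FBXO32 was at 1.46 in HCT116, with too few counts to be counted. SKP2, an F-box gene that targets MYC and p27, fell by 1.13 and 1.40. USP36, a deubiquitinase of MYC, fell 2.01-fold in H1299, and AURKA and HUWE1 fell in HCT116. After centring, SKP2 and USP36 were short of 2-fold in H1299.

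Among regulators of MYC transcription and genes next to MYC, 5 of 9 fell and 0 rose in HCT116 (median -1.07), and 1 of 10 fell and 0 rose in H1299 (median -0.66). The H1299 gene was FUBP1, which binds upstream of MYC (-1.16, or -0.95 after centring), and E2F4 was at -0.94, or -1.10 over features listed in both libraries. In HCT116 they were PVT1 (-2.06), HNRNPK (-1.57), CNBP (-1.26), E2F4 (-1.23) and CTCF (-1.07, or -0.90 after centring), and TCF7L2 was at -0.88, or -1.31 over features listed in both libraries. PVT1, the long noncoding RNA gene next to MYC, went from 15.7 to 3.78 CPM in HCT116 and from 13.9 to 8.09 CPM in H1299. Most counts with PVT1 in the name lie under a name joined with RF02164 (1184, 735, 8379 and 1000), and with joined names added the HCT116 log2 ratio was -2.34. CCAT1 and CASC11 had no listed feature.

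**Figure D5:**
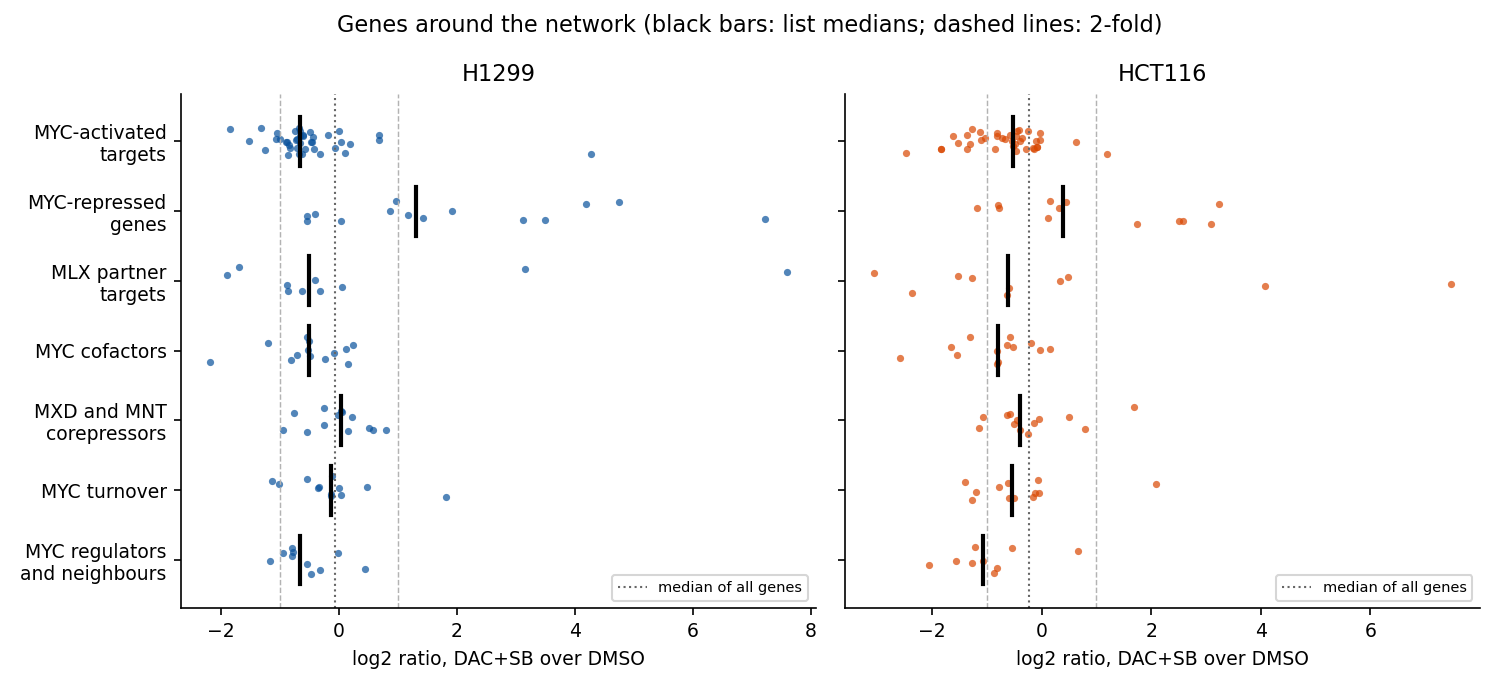
Log2 ratio of DAC+SB to DMSO for each gene of 7 lists that reached 100 counts in a library of the line, in H1299 (left) and HCT116 (right), with list medians as black bars, the median of all genes as a dotted line and 2-fold as dashed lines. Points are spread vertically for legibility only. Medians of the MYC-activated targets are -0.66 and -0.53 and those of the MYC-repressed genes 1.30 and 0.39, the 1.30 including 6 genes that reached 100 counts only with DAC+SB. COL1A2 in H1299 and TXNIP in both lines, with 0 or 1 count with DMSO, are drawn against 3 counts.

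The genes whose pattern was most like that of MYC were sought among 8056 genes with at least 1000 counts in a library, by Euclidean distance over 3 differences of log2(CPM + 1): the 2 treatment differences and the difference between the lines under DMSO. The 5 nearest were ATAD5 (distance 0.066), DDX54 (0.099), TOR3A (0.156), NXT1 (0.171) and CWC22 (0.180). ATAD5 had 24.8, 10.2, 28.5 and 15.4 CPM and DDX54 had 71.5, 31.9, 88.5 and 48.0 CPM. The ranking depended on the features used. Features listed in all 4 libraries leave out the HCT116 counts of MYC feature 2. Over them the DMSO difference of MYC between the lines was 0.31 in place of -0.25. The 5 nearest genes were then BRCA2 (distance 0.028), LSM5 (0.175), AFG3L1P (0.188), TMEM222 (0.197) and ZNF282 (0.198), while the 5 named before ranked between 154 (CWC22) and 434 (DDX54). No gene was among the 5 nearest in both rankings, and both rest on 4 libraries.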

How the data were processed

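Whole-number counts per feature and cell were deposited by the authors in a gene table and a TE table. Per the submitters' processing notes, CASAVA and STAR were used with GRCh38 (hg38); the sources used here do not give their versions, the counting tool, the annotation or whether counts are unique molecules. Cells were assigned to libraries by the ending of their names, and every listed cell was used without doublet calling. Features naming 1 gene were summed per library and divided by gene plus TE counts (python 3.11.15, numpy 2.4.6, pandas 2.3.3, scipy 1.17.1). No test or p-value was computed, since each group has 1 library. Levels carry exact Poisson intervals, ratios exact conditional binomial intervals, and differences between lines a normal approximation of log counts, all at 95%. A ratio against 0 uses a floor of 3 counts per library. Counts of 1 or 2 were also raised to this floor for counts past a fold, medians and plots of lists, but not for printed ratios. Per-cell values were thinned by a hypergeometric draw. The intervals were checked on simulated Poisson counts, a check that cannot show whether the deposited counts are independent. Named list genes are the 2 highest and 2 lowest log2 ratios of each list and line; other list genes were named after their values were seen, where 5 or fewer made up a count or 1 was singled out. Members and lists were chosen with earlier results of these data known. Gene positions are from GENCODE v29. The level of 1 line marker is not reported here.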

Additional observations from a re-analysis of the deposited data

Results flagged for a closer look

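MXD1 had a log2 ratio of -0.34 in H1299 and 1.32 in HCT116, values of opposite sign. MGA had -0.28 in H1299 and 0.14 in HCT116. Both depended on the scaling, since after centring the H1299 values were -0.13 (-0.33 to 0.07) and -0.07 (-0.15 to 0.00), within counting error of 0. Neither difference between the lines was tested, since each line has 1 library per treatment, and 24.7% of the 12644 genes compared had log2 ratios of opposite sign.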

How the results depend on the processing

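No paired analysis was possible because each group has 1 library. No value past 2-fold changed direction under the alternatives run. In H1299 the log2 ratio of MYC was -1.002 after centring on the median of ratios, -1.27 without the 5% of cells with most counts and -1.10 in cells without a mitotic count. In HCT116 it was -0.74 over gene counts alone, -0.64 after centring, -0.73 in cells without a mitotic count and -1.009 over features listed in all 4 libraries. The number of members higher in H1299 was 0 at 4-fold and 0 in cells without a mitotic count, and the number lower was 0 at 4-fold and 2 at 1.5-fold. In HCT116 the number higher was 0 with joined names added, 0 at 4-fold, 0 with a minimum of 1000 counts and 2 at 1.5-fold. It was also 0 in cells without a mitotic count, where MXD1 was at 1.58 but had 21 and 86 counts, under the minimum of 100. The number lower in HCT116 was 3 at 1.5-fold and 1 (MYC) over features listed in all 4 libraries, which leave out MYC feature 2. The alternative restricted to cells without a mitotic count, the split into cells with the most and the fewest mitotic transcripts, the joined names and centring for the lists, the minimum of 100 counts with DMSO for the lists, and the features listed in all 4 libraries for treatment ratios and for the genes nearest to MYC were chosen after seeing the data. Of the log2 ratios per line, 193 moved within counting error and 47 beyond it. Centring ended the 2-fold calls of KAT2A, FUBP1, MYBBP1A, POLR1B, SKP2 and USP36 in H1299 and of CTCF, DKC1, E2F1, RBBP4, RBBP7 and WDR43 in HCT116, and brought DDIT3, ING1 and THBS1 past 2-fold higher in H1299. With 246 to 467 counts per library, MXD1 was among the members that depth limits most.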

Other observations

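Cells with many MYC counts were compared with cells without one inside each library, a split that uses MYC itself. Between the 10% of thinned cells with most MYC counts and the cells with 0, the summed MYC-activated targets had log2 ratios of 0.02 (0.00 to 0.03) and 0.03 (0.01 to 0.04) in the H1299 libraries (DMSO first) and of 0.12 (0.10 to 0.13) and 0.07 (0.04 to 0.09) in the HCT116 libraries. The summed MYC-repressed genes differed by 0.10, 0.10, -0.16 and 0.17. Between the same cells 1.15%, 2.10%, 1.08% and 1.72% of genes exceeded 1.5-fold upward and 3.07%, 2.77%, 2.19% and 3.94% downward. Of the members other than MYC, MXD3 was past 1.5-fold lower in the MYC-rich H1299 cells, at 17.9 against 29.01 CPM with DMSO and 11.1 against 17.2 CPM with DAC+SB, log2 ratios of -0.70 (-0.99 to -0.41) and -0.64 (-1.02 to -0.28). In HCT116 it was at -0.15 (-0.41 to 0.11) and -0.29 (-0.80 to 0.18). MNT was at 0.45 (0.08 to 0.79) in HCT116 DMSO and MXD4 at 0.24 (0.09 to 0.39) in H1299 DAC+SB, short of 1.5-fold. The other values of the members were within counting error of 0.

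When the third of cells with the most mitotic transcripts was set against the third with the fewest, MXD3 was at 1.70, 2.54, 1.67 and 1.44 on the log2 scale and MYC at -0.86, -1.11, -0.06 and -0.18. MNT was at -1.24, -0.76, -0.85 and -0.13 and MXD4 at -0.90, -0.97, -0.07 and -0.08. MXI1 was at -0.59, 0.10, -0.26 and 0.22. MAX, MXD1 and MLX lay between -0.34 (MXD1 in HCT116 DAC+SB) and 0.43 (MLX in H1299 DAC+SB). No share of all genes is given for this split, so these values are not set against genes in general.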
